A study of Mus musculus with 46 samples.

Results

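Cells that respond to cytokines and to Toll-like receptor ligands also make proteins that shut the signal down again. Described here are 8 genes of that kind: the JAK-STAT inhibitors *Socs1*, *Socs2*, *Socs3* and *Cish* and the MAP kinase phosphatases *Dusp1*, *Dusp2*, *Dusp5* and *Dusp6*. They were taken by gene symbol, and each was listed in all 3 expression tables of the series, out of 21231 genes listed in any of them. The rule used gene symbols alone, but the list was drawn up with earlier results of these data known.

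SOCS proteins and CISH are induced by STAT transcription factors and bind the activated cytokine receptors or JAK kinases, which blocks further STAT phosphorylation or marks the complex for degradation. DUSP phosphatases remove phosphates from MAP kinases. DUSP1 and DUSP2 act in the nucleus, DUSP1 mainly on p38 and JNK, whereas DUSP5 (nuclear) and DUSP6 (cytoplasmic) act on ERK. In macrophages and microglia such genes are induced by the same signals that they dampen, and *Dusp1* is also an immediate early gene and a target of the glucocorticoid receptor.

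RNA was sequenced in 46 libraries of wild-type C57BL/6 mice in 11 groups, from mice of about 2 months of age at the start. PLX3397, a CSF1R inhibitor that kills microglia, was given in chow for 14 days and then withdrawn for 28 days to obtain WM repopulating cells, which spread from the white matter and subventricular zone (SVZ), or for 7 days with 28 days of recovery to obtain GLOBAL repopulation. In the LPS experiment, CD11b+CD45int cells were sorted from whole hemispheres of control mice without LPS (0 hr, n = 3) and at 6 hr (n = 5) and 24 hr (n = 4) after 0.33 mg/kg of intraperitoneal LPS, and of WM repopulated mice at these 3 times (n = 4 each). For GLOBAL repopulation the same sort was made from control (n = 4) and GLOBAL repopulation mice (n = 3), and the SVZ experiment had micro-dissected tissue from control mice, mice after 14 days of PLX3397 and mice after 5 days of recovery (n = 5 each). Control mice received vehicle in place of PLX3397. The 0 hr mice received no LPS, and the sources used here do not settle whether they were injected with PBS, so in comparisons with 0 hr the effects of LPS and of the injection cannot be told apart. The sort gate selects surface CD11b and CD45, so its cells are not defined by origin.

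Levels are FPKM, which scales a gene's reads to both transcript length and sequencing depth, and differences are on the scale of log2(FPKM + 1), which understates the change of low genes. A gene was called changed when the adjusted p of limma (Benjamini-Hochberg over all tested genes of the table, two-sided) was under 0.05. Libraries held 4.58 M to 10.3 M assigned reads in the LPS experiment, 1.91 M to 5.04 M in the GLOBAL experiment and 7.94 M to 15.8 M in the SVZ experiment. In the sorted cells of the LPS experiment, all 12 microglia markers reached 1 FPKM in every group. Their summed FPKM was 24645 to 29014 at 0 hr, 9591 to 12358 at 6 hr and 13229 to 18360 at 24 hr. Markers of other cell types were also found. Across the libraries, summed FPKM was 706 to 15511 over 10 neutrophil genes and 141 to 3443 over 8 monocyte genes. Among further lists, border-associated macrophage genes summed to 25.6 to 163, and T, B and NK cell genes to 22.9 to 90.0. Ependymal and choroid plexus genes summed to 10.7 to 1358. The neutrophil sum in control was 1287 to 6281 at 6 hr and 6468 to 15511 at 24 hr, without overlap. In WM it was 706 to 10615 and 3199 to 7316, with overlap. The monocyte sum was 1254 to 3443 at 6 hr and 141 to 703 at the other times. Fewer cells of a type and less RNA per cell cannot be told apart in these libraries.

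A pair of control libraries stood apart from their groups. Control 6 hr replicate 2 and control 24 hr replicate 4 correlated with other libraries of their groups at Pearson's r of 0.917 to 0.958 over 7 pairs, against 0.959 to 0.985 over the 30 other pairs within groups of the LPS experiment (across genes, which are not independent replicates). In the GLOBAL experiment, control libraries correlated with each other at 0.950 to 0.960. Differences printed here that lost their call or moved by over 1.5 times without 1 of them are also given without it.

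The windows around the transcription starts of 3 members hold a match to a motif that was searched, and are printed for that reason. Each runs from 250 bases before to 50 bases after the start given by RefSeq on GRCm38.p6, 5′ to 3′ on the strand of the gene. Of the 8 members, 7 had such a window (*Socs2* is not in the table used), and 4 motifs were searched on both strands. Capitals mark TTCNNNGAA, the element bound by STAT factors, in *Socs3* and *Cish*, and TGACGTCA, the cAMP response element, in *Dusp1*.
Socs3 (chr11:117969317-117969616, minus strand): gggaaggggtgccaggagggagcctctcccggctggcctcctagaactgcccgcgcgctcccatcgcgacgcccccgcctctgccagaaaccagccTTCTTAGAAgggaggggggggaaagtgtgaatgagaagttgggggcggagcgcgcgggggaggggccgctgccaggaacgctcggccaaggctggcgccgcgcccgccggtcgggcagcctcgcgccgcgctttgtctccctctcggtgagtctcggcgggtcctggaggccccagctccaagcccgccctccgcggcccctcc
Cish (chr9:107296409-107296708, plus strand): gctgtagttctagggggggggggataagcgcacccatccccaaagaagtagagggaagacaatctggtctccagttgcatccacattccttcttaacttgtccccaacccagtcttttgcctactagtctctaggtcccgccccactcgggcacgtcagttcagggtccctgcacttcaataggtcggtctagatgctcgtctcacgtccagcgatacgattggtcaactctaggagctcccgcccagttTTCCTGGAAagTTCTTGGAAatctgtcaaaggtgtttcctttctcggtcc
Dusp1 (chr17:26508423-26508722, minus strand): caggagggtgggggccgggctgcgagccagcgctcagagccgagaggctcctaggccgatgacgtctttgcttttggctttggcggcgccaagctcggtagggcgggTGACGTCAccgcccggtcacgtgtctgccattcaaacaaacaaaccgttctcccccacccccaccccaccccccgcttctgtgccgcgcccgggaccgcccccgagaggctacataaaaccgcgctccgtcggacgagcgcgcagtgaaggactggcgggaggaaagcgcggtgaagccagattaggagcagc
The STAT element begins at base 97 of the window in *Socs3* and at bases 251 and 262 in *Cish*. At least 1 match is found in 8.30% of the 32851 promoter windows of the table. The cAMP response element begins at base 108 in *Dusp1* and is found in 1.79% of windows. The AP-1 site TGANTCA (7.81% of windows) and the consensus kB site (0.155%) had no match in the 7 windows, and none of the 4 motifs occurred in those of *Socs1*, *Dusp2*, *Dusp5* and *Dusp6*. A match describes letters, not binding.

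In control microglia at 0 hr, the members differed in level over several orders of magnitude. On the FPKM scale, which divides by gene length, *Dusp1* was highest at 2049 ± 447 (SD, n = 3), followed by *Dusp6* at 318 ± 18.2, *Socs3* at 38.0 ± 18.7, *Socs1* at 16.1 ± 0.998, *Dusp2* at 12.5 ± 4.09, *Dusp5* at 5.97 ± 0.0607, *Cish* at 1.02 ± 1.04 and *Socs2* at 0.311 ± 0.171. Neighbours in that order overlapped between libraries for *Socs1* and *Dusp2* and for *Cish* and *Socs2*, and the other neighbours did not. The lowest 2 rested on few reads, 2 to 8 per control 0 hr library for *Socs2* and 1 to 31 for *Cish*, so their 0 hr levels carry counting error besides the spread between mice.

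**Figure D1:**
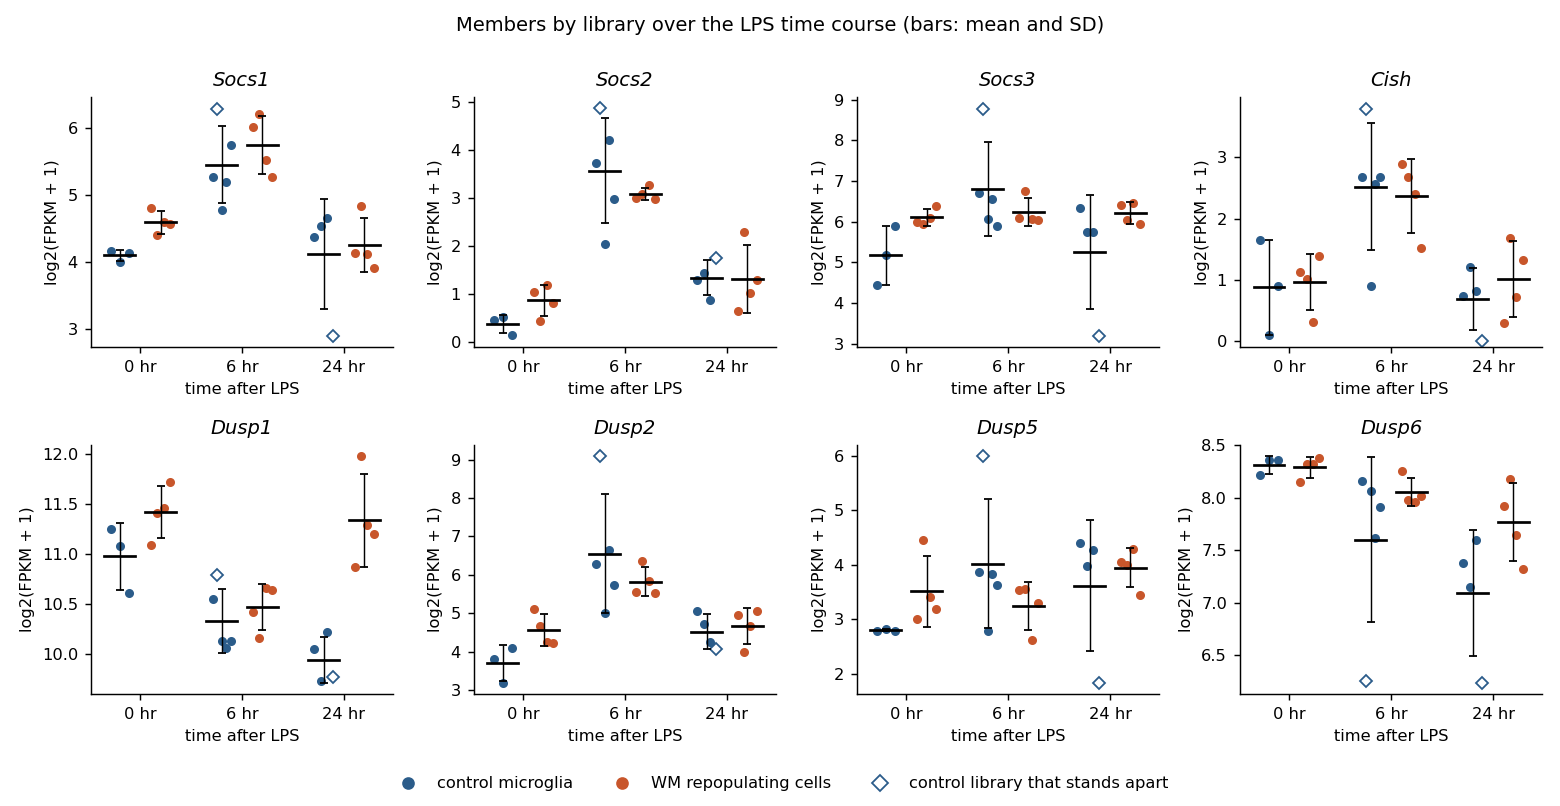
Log2(FPKM + 1) of each member in every library of the LPS experiment, at 0, 6 and 24 hr after LPS, in control microglia and WM repopulating cells. Points are libraries, bars are the mean and SD, and open diamonds are the 2 control libraries that stand apart. *Socs2* is higher at 6 hr than at 0 hr in both origins, and *Dusp1* at 24 hr does not overlap between control and WM.

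*Socs1*, *Socs2* and *Cish* rose 6 hr after LPS in control microglia and in WM repopulating cells, and fell from 6 hr to 24 hr in both. *Socs3* passed the test at 6 hr in control microglia and did not in WM repopulating cells. Of the 8 members, 6 were called at 6 hr against 0 hr in control microglia (5 higher and 1 lower), where 42.5% of all tested genes were called, 21.4% higher and 21.1% lower. In WM repopulating cells 4 were called (3 higher and 1 lower), against 38.8% of all genes, 19.3% higher and 19.5% lower. Limma voom on reads recovered from the FPKM values called 5 members in control and 3 in WM. The median difference of the 8 members was 1.49 in control and 0.65 in WM, beside 0.01 and 0.00 over all tested genes on the log2 scale. No member passed the test for a difference of this response between origins (limma, adjusted p = 0.679 to 0.958).

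*Socs2* (Entrez 216233, chr10:95385362-95417180, minus strand, GRCm38) limits growth hormone and other STAT5 signals. In control microglia it was at 0.386, 0.431 and 0.115 FPKM at 0 hr and at 12.4, 28.3, 3.14, 17.7 and 6.93 FPKM at 6 hr. In WM repopulating cells it was at 1.06, 0.352, 1.29 and 0.761 FPKM at 0 hr and at 7.08, 7.49, 8.64 and 6.87 FPKM at 6 hr. Every 6 hr library lay above every 0 hr library of its origin, and the control 6 hr libraries spread over a wider range than those of WM. The difference was 3.20 in control (SE 0.42, adjusted p = 1.5e-06) and 2.22 in WM (SE 0.40, adjusted p = 0.000123). At 24 hr, *Socs2* was at 1.46, 1.73, 0.828 and 2.37 FPKM in control and at 0.571, 3.91, 1.04 and 1.47 FPKM in WM. These fell below every 6 hr library of their origin, by 2.24 in control (adjusted p = 0.000126) and by 1.77 in WM (adjusted p = 0.00404) on the log2 scale. At 24 hr against 0 hr *Socs2* did not pass the test in control (difference 0.96, 95% interval 0.06 to 1.86, adjusted p = 0.124), although every library at 24 hr lay above every library at 0 hr, or in WM (adjusted p = 0.481). The control difference had an adjusted p of 0.0166 with a pseudocount of 0.1 and 0.027 with the compared groups alone in the fit.

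*Socs1* (Entrez 12703, chr16:10782240-10785536, minus strand) is the SOCS protein that restrains interferon signalling. Control libraries were at 16.8, 14.998 and 16.6 FPKM at 0 hr and at 37.6, 77.4, 26.5, 35.4 and 52.6 FPKM at 6 hr. WM libraries were at 27.0, 20.1, 23.1 and 22.6 FPKM at 0 hr and at 63.8, 72.7, 44.9 and 37.4 FPKM at 6 hr. The 6 hr libraries did not overlap with those at 0 hr in either origin, and the lowest WM library at 0 hr lay above the highest control library. *Socs1* rose by 1.36 in control (SE 0.33, adjusted p = 0.0019) and by 1.16 in WM (SE 0.32, adjusted p = 0.00584). At 24 hr it was at 19.7, 22.3, 24.2 and 6.44 FPKM in control and at 16.6, 27.6, 16.4 and 13.999 FPKM in WM. From 6 hr to 24 hr it fell by 1.34 (adjusted p = 0.00183) in control and by 1.501 (adjusted p = 0.00229) in WM, with no overlap of the groups, and the low value of 6.44 was that of control 24 hr replicate 4.

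*Cish* (Entrez 12700, chr9:107296026-107302784, plus strand) is the founding member of the SOCS family. It was at 2.13, 0.0672 and 0.865 FPKM in control at 0 hr, at 5.39, 12.9, 0.865, 4.90 and 5.39 FPKM at 6 hr, and at 0.662, 1.32, 0.762 and 0 FPKM at 24 hr. In WM it was at 1.19, 1.03, 0.238 and 1.60 FPKM at 0 hr, at 6.41, 5.43, 4.28 and 1.86 FPKM at 6 hr, and at 0.223, 2.23, 0.649 and 1.503 FPKM at 24 hr. In control, 1 of the 5 libraries at 6 hr (replicate 3) stayed within the 0 hr range, whereas in WM the 6 hr libraries lay above all of those at 0 hr. *Cish* rose by 1.64 in control (SE 0.47, adjusted p = 0.00678) and by 1.41 in WM (SE 0.46, adjusted p = 0.0165), and then fell by 1.83 (adjusted p = 0.00249) and by 1.37 (adjusted p = 0.043) to 24 hr. These calls rest on few reads and single libraries. The rise in control had an adjusted p of 0.0667 without control 0 hr replicate 2, and that in WM 0.0612 without WM 0 hr replicate 3 and 0.0541 without WM 6 hr replicate 1. Limma voom on recovered reads did not call the rise in WM either. The fall in WM lost its call without replicate 1, 2 or 3 of WM 6 hr and without replicate 1, 3 or 4 of WM 24 hr (adjusted p = 0.0564 to 0.139). Exons of *Cish* share 261 and 479 bases with *Gm17040* and *Gm17041* on the opposite strand, and whether the counting used strand is not stated, so their reads cannot be told apart.

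*Socs3* (Entrez 12702, chr11:117966079-117970047, minus strand) restrains IL-6 and other gp130 signals. Control libraries were at 20.8, 35.2 and 57.9 FPKM at 0 hr, at 104, 439, 65.8, 92.5 and 58.4 FPKM at 6 hr, and at 79.3, 52.8, 52.7 and 8.15 FPKM at 24 hr. WM libraries were at 62.4, 60.3, 67.2 and 83.0 FPKM at 0 hr, at 67.2, 107, 66.2 and 65.3 FPKM at 6 hr, and at 84.6, 64.5, 86.8 and 60.7 FPKM at 24 hr. The control libraries ranged widely, with the highest at 6 hr and the lowest at 24 hr being the 2 libraries that stand apart, while the WM libraries stayed within 60.3 to 107 FPKM at all times. In control, the rise of 1.63 (SE 0.55) had an adjusted p of 0.0187, which was 0.0518 without control 6 hr replicate 2 (difference 1.13) and 0.113 without control 0 hr replicate 1. The fall from 6 hr to 24 hr, by 1.54 (SE 0.50, adjusted p = 0.0232), ended with either apart library left out (adjusted p = 0.0744 without control 6 hr replicate 2 and 0.144 without control 24 hr replicate 4), and was -0.36 with an adjusted p of 0.351 without both. In WM, the difference at 6 hr was 0.14 (95% interval -0.95 to 1.23, adjusted p = 0.861). Neither the difference of the rises between origins (-1.49, 95% interval -3.06 to 0.08, adjusted p = 0.701, and -0.997 without control 6 hr replicate 2) nor that of WM against control at 0 hr (0.93, 95% interval -0.25 to 2.11, adjusted p = 0.557) passed the test, although all WM libraries at 0 hr lay above all control libraries.

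*Dusp2* (Entrez 13537, chr2:127336159-127338376, plus strand), also known as PAC-1, is an early-response phosphatase of activated leukocytes. In control it was at 13.1, 8.08 and 16.2 FPKM at 0 hr and at 76.3, 545, 31.2, 98.3 and 52.6 FPKM at 6 hr. In WM it was at 33.8, 24.5, 18.02 and 17.8 FPKM at 0 hr and at 46.2, 80.4, 56.2 and 45.1 FPKM at 6 hr. The groups did not overlap in either origin, and control 6 hr replicate 2 lay far above the rest. *Dusp2* rose by 2.85 in control (SE 0.53, adjusted p = 0.00014), and by 2.21 (adjusted p = 1.33e-05) without that library, whose removal took the 6 hr mean from 161 ± 216 to 64.6 ± 29.0 FPKM. In WM the difference of 1.25 (SE 0.52) did not pass the threshold (adjusted p = 0.058), and did with the compared groups alone in the fit (adjusted p = 0.000609). The difference between these responses was -1.60 (95% interval -3.13 to -0.07), with an unadjusted p of 0.0416 but an adjusted p of 0.679, and was -0.96 (adjusted p = 0.742) without control 6 hr replicate 2. At 24 hr *Dusp2* was at 32.3, 25.2, 17.96 and 15.7 FPKM in control, a fall of 2.03 from 6 hr (adjusted p = 0.00293) with overlap of the groups, and of 1.40 (adjusted p = 0.00188) without control 6 hr replicate 2. It was at 30.2, 14.95, 24.5 and 32.1 FPKM in WM at 24 hr, below every WM library at 6 hr but with an adjusted p of 0.135.

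*Dusp5* and *Dusp6*, the ERK phosphatases, were not called at 6 hr in either origin in the fit of all libraries without a replicate block. *Dusp5* (Entrez 240672, chr19:53529109-53542431, plus strand) was at 5.93, 6.03 and 5.93 FPKM in control at 0 hr, at 13.6, 62.8, 5.85, 13.3 and 11.4 FPKM at 6 hr, and at 20.1, 14.8, 18.2 and 2.55 FPKM at 24 hr. The 0 hr libraries lay close together, and the highest and the lowest of the later values were the 2 libraries that stand apart. The difference at 6 hr was 1.22 (SE 0.53, adjusted p = 0.0688). It was 0.73 (adjusted p = 0.202) without control 6 hr replicate 2, and was called without control 6 hr replicate 3 (1.53, adjusted p = 0.0207) and with the replicate number as a block (1.51, adjusted p = 0.0219). At 24 hr against 0 hr, *Dusp5* had an adjusted p of 0.322 with all libraries, 0.0491 without control 24 hr replicate 4 and 0.00286 without both apart libraries. In WM, *Dusp5* ranged from 7.04 to 20.8 FPKM at 0 hr, 5.14 to 10.8 at 6 hr and 9.89 to 18.6 at 24 hr, all overlapping. Its exons share 547 bases with *AC137853.2* on the opposite strand.

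*Dusp6* (Entrez 67603, chr10:99263231-99267489, plus strand) was lower in control microglia at 24 hr than at 0 hr. It was at 297, 328 and 329 FPKM at 0 hr, at 285, 75.0, 267, 196 and 240 FPKM at 6 hr, and at 165, 141, 193 and 74.1 FPKM at 24 hr. All libraries at 6 hr and 24 hr lay below those at 0 hr, and the values of 75.0 and 74.1 were those of the 2 apart libraries. The difference at 6 hr was -0.71 (SE 0.31, adjusted p = 0.0695). It was -0.38 (adjusted p = 0.196) without control 6 hr replicate 2, and was called without replicate 1 (adjusted p = 0.0362) or replicate 3 (adjusted p = 0.0408) of control 6 hr. The difference at 24 hr was -1.23 (SE 0.33, adjusted p = 0.00889), and -0.94 (adjusted p = 0.038) without control 24 hr replicate 4. In WM, *Dusp6* was at 282, 318, 318 and 332 FPKM at 0 hr and at 242, 289, 200 and 158 FPKM at 24 hr, with overlap and a difference of -0.52 (adjusted p = 0.245). WM against control at 24 hr differed by 0.68 (95% interval 0.05 to 1.30, adjusted p = 0.238), and by 0.39 (adjusted p = 0.574) without control 24 hr replicate 4.

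*Dusp1* (Entrez 19252, chr17:26505590-26562128, minus strand) was the most abundant member and the one that differed between origins. The span is that of the GENCODE gene model, whose start lies upstream of the RefSeq window printed above. *Dusp1* fell at 6 hr after LPS in both origins, and at 24 hr it was low in control microglia and high in WM repopulating cells. Control libraries were at 2428, 2163 and 1555 FPKM at 0 hr, at 1494, 1765, 1119.6, 1063 and 1119 FPKM at 6 hr, and at 1054, 847, 1189.8 and 869 FPKM at 24 hr. WM libraries were at 2185, 2724, 2809 and 3381 FPKM at 0 hr, at 1363, 1144, 1621 and 1594 FPKM at 6 hr, and at 1863, 4045, 2508 and 2355 FPKM at 24 hr. Every WM library at 24 hr lay above every control library at 24 hr, while the origins overlapped at 0 hr and 6 hr.

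*Dusp1* fell by 0.65 from 0 hr to 6 hr in control (SE 0.22, adjusted p = 0.0217) and by 0.95 in WM (SE 0.22, adjusted p = 0.00109), where the groups did not overlap. The call in control ended without control 0 hr replicate 1 (adjusted p = 0.119), without control 0 hr replicate 2 (0.0783), without control 6 hr replicate 4 (0.0531) and under quantile normalization (0.071). It also ended with the replicate number as a block, as given in the closing section. From 0 hr to 24 hr, *Dusp1* fell by 1.04 in control (SE 0.23, adjusted p = 0.00234), with no overlap, but in WM the difference was -0.09 (95% interval -0.53 to 0.36, adjusted p = 0.825). From 6 hr to 24 hr it rose by 0.87 in WM (SE 0.22, adjusted p = 0.00744), again with no overlap, and the difference in control was -0.39 (adjusted p = 0.159). Under quantile normalization the rise in WM was 0.50 and lost its call (adjusted p = 0.0988). At 24 hr WM exceeded control by 1.40 (SE 0.22, 95% interval 0.95 to 1.84, adjusted p = 0.000542), and this call held under all alternatives tried, with differences of 1.18 to 1.55. The difference of the responses themselves was 1.26 for 24 hr against 6 hr (SE 0.30, unadjusted p = 0.000298, adjusted p = 0.086) and 0.95 for 24 hr against 0 hr (SE 0.32, unadjusted p = 0.00622, adjusted p = 0.306), so it did not pass the threshold over all genes. In order of the mean, the groups were WM 0 hr (2775 ± 490), WM 24 hr (2693 ± 942), control 0 hr (2049 ± 447), WM 6 hr (1430.4 ± 223), control 6 hr (1312 ± 306) and control 24 hr (989.9 ± 163), and each neighbouring pair in this order overlapped between libraries.

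Some immediate early genes, glucocorticoid responsive genes and marker sums also differed between origins at 24 hr. The summed FPKM of 21 immediate early genes that are also raised by tissue dissociation (without *Dusp1*) was 9306 to 10281 in control and 12832 to 13865 in WM at 0 hr, 3391 to 7162 and 5188 to 7492 at 6 hr, and 3148 to 5467 and 8942 to 11510 at 24 hr. Control and WM did not overlap in this sum at 0 hr or at 24 hr, whereas *Dusp1* overlapped at 0 hr. Of these 21 genes, 7 were higher and 0 lower in WM than in control at 24 hr, where 3.97% of all tested genes were called and 1.68% were higher, with *Egr1* at 1767 against 417 FPKM and *Ier2* at 1201 against 404 FPKM as group means. Their median difference was 0.85 beside 0.02 over all tested genes. Of 11 tested glucocorticoid responsive genes, 4 were higher and 0 lower in the same comparison, among them *Fkbp5* at 80.4 against 24.8 FPKM. The neutrophil sum at 24 hr was 6468 to 15511 in control and 3199 to 7316 in WM, with overlap. The summed FPKM of 8 markers of border-associated macrophages was 76.8 to 99.2 in control and 25.6 to 51.8 in WM, without overlap, and 7 and 6 of these markers reached 1 FPKM. Sums of ependymal and choroid plexus markers (35.8 to 54.7 in control and 10.7 to 32.3 in WM), of neuroblast and neural stem cell markers (5.78 to 11.1 and 2.24 to 3.28) and of oligodendrocyte precursor markers (0.132 to 0.278 and 0.716 to 1.15) did not overlap at 24 hr either. These last 3 sums rested on few genes. At 24 hr, 1 FPKM was reached by 2 (control) and 1 (WM) of 6 listed ependymal and choroid plexus genes. It was reached by 2 and 2 of 5 listed neuroblast and stem cell genes, and by 0 and 1 of 3 listed precursor genes. The remaining cell type sums overlapped between origins at 24 hr. The part of any of these genes in the difference of *Dusp1* was not tested. The exons of *Dusp1* share 11 bases with *Ergic1* on the opposite strand.

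**Figure D2:**
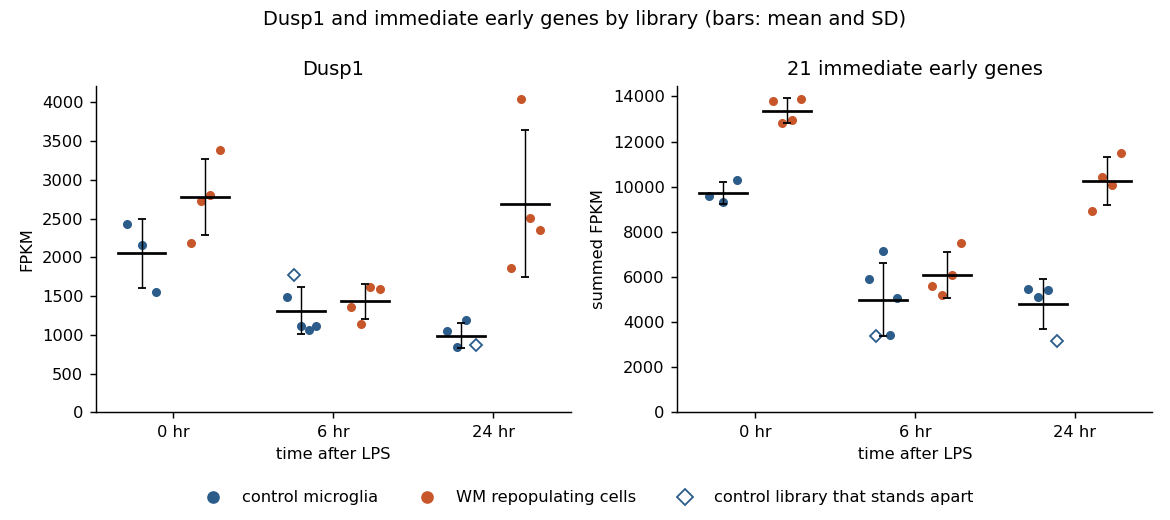
FPKM of *Dusp1* (left) and summed FPKM of 21 immediate early genes (right) in every library at 0, 6 and 24 hr after LPS. Points are libraries of control microglia and WM repopulating cells, bars are the mean and SD, and open diamonds are the 2 control libraries that stand apart. In both panels, control and WM do not overlap at 24 hr.

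At 24 hr against 0 hr, 2 of 8 members were called in control microglia (*Dusp1* and *Dusp6*, both lower), where 21.3% of all genes were called and 9.23% were lower. In WM none was called, where 18.8% of all genes were, and limma gave 0 members at an unadjusted p under 0.05 and limma voom on recovered reads gave 0. At 24 hr against 6 hr, 5 members were lower in control (*Socs1*, *Socs2*, *Socs3*, *Cish* and *Dusp2*), where 28.3% of genes were called and 13.3% were lower. In WM, 3 were lower (*Socs1*, *Socs2* and *Cish*) and 1 higher (*Dusp1*), where 15.7% of genes were called, 7.50% lower and 8.19% higher. For 24 hr against 6 hr, voom called 5 members in control and 3 in WM.

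**Figure D3:**
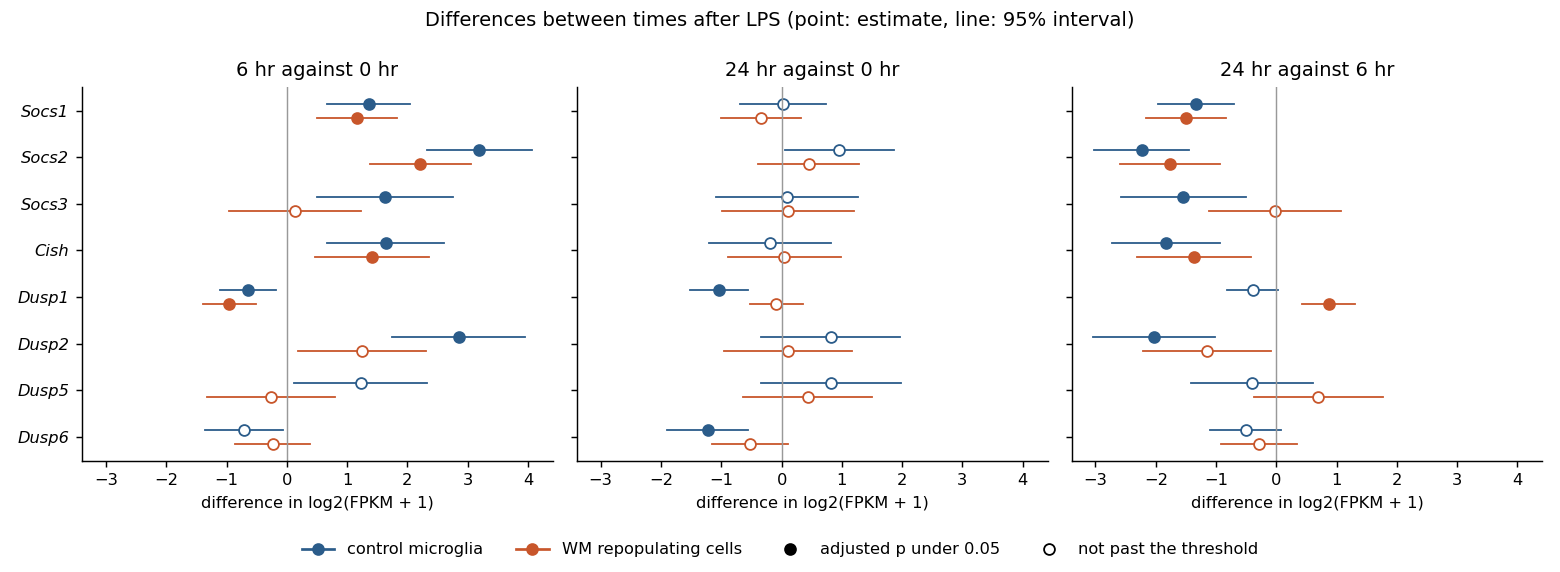
Differences in log2(FPKM + 1) between times after LPS for each member (rows) in control microglia and WM repopulating cells, with lines for the 95% interval of limma and filled points for an adjusted p under 0.05. Filled points at 6 hr against 0 hr are *Socs1*, *Socs2*, *Socs3*, *Cish*, *Dusp1* and *Dusp2* in control and *Socs1*, *Socs2*, *Cish* and *Dusp1* in WM.

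Between origins at one time, no member was called at 0 hr (1.21% of all genes called, 0 members at an unadjusted p under 0.05 and 0 by voom) or at 6 hr (0.323% of all genes, 0 members unadjusted and 0 by voom). At 24 hr, 1 of 8 was called, *Dusp1*, where 3.97% of all genes were called and 1.68% were higher. Differences of the responses between origins gave 0 called members for 6 hr against 0 hr, 24 hr against 0 hr and 24 hr against 6 hr, where 0.0237%, 0.0867% and 0.158% of all genes were called. At an unadjusted p under 0.05 these had 1, 1 and 2 members, and voom called 0 in each. At 0 hr, *Socs1*, *Socs3*, *Dusp2* and *Dusp5* were higher in every WM library than in every control library, as were 7.61% of all tested genes, and with adjusted p of 0.557 to 0.665 none of the 4 passed the test. Some marker sums did not overlap at 0 hr either. In control and WM these were ependymal and choroid plexus (73.9 to 218 and 281 to 718) and endothelial and pericyte markers (9.84 to 13.6 and 4.93 to 7.68). Astrocyte (56.1 to 62.1 and 38.9 to 53.1) and oligodendrocyte precursor sums (0.0221 to 0.112 and 0.393 to 0.546) were also apart, and the other cell type sums overlapped.

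Counts for other genes of these pathways at 6 hr against 0 hr are to be read beside the 42.5% of all tested genes called in control (21.4% higher and 21.1% lower) and the 38.8% called in WM (19.3% higher and 19.5% lower). Of 11 tested JAK kinases and STAT factors, 7 were higher and 1 lower in control and 7 higher and 2 lower in WM (median difference 0.88 and 0.67, beside 0.01 and 0.00 over all tested genes). *Stat3*, the factor that acts below IL-6 receptors, went from 63.9 to 191 FPKM in control (difference 1.52, adjusted p = 2.63e-06) and from 62.9 to 174 FPKM in WM (1.41, adjusted p = 5.36e-06). *Stat2*, a factor of type I interferon signalling, went from 7.67 to 37.5 FPKM in control and from 11.4 to 43.6 FPKM in WM. Of 20 receptors that use JAK kinases, 6 were higher and 7 lower in control and 5 higher and 9 lower in WM. Of 7 tested cytokines that act through JAK kinases, 4 were higher and 2 lower in control and 2 higher and 2 lower in WM.

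Other inhibitors of JAK-STAT signalling went both ways, with 4 of 11 higher and 3 lower in control and 2 higher and 4 lower in WM. The 2 named by size rose in both origins, *Usp18*, which blocks the type I interferon receptor, from 11.9 to 75.8 FPKM in control and from 17.7 to 88.6 FPKM in WM, and *Ptpn1*, a tyrosine phosphatase, from 107 to 438 FPKM and from 107 to 310.0 FPKM. Of 4 other Socs genes, 0 were higher in either origin, and 1 was lower in control (*Socs6*, 6.75 against 9.95 FPKM). Of 4 other MAP kinase phosphatases, 2 were higher and 1 lower in both origins. *Dusp16*, which acts on JNK and p38, went from 2.22 to 15.6 FPKM in control and from 2.34 to 8.04 FPKM in WM, and *Dusp7* went from 18.1 to 7.37 FPKM and from 13.8 to 8.39 FPKM. Of 11 atypical Dusp genes, 4 were lower in control and 3 in WM, and 0 were higher.

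Of 29 tested genes of the MAP kinase cascade, 6 were higher and 5 lower in control and 4 higher and 5 lower in WM. *Map3k8*, the kinase that links Toll-like receptors to ERK, went from 21.8 to 134 FPKM in control and from 28.8 to 97.1 FPKM in WM, and *Map2k6*, a p38 kinase kinase, went from 7.22 to 0.599 FPKM and from 7.09 to 0.504 FPKM. Of 11 Sprouty, Spred and other feedback genes of the ERK pathway, 3 were higher and 4 lower in control and 3 higher and 3 lower in WM. Of the 21 immediate early genes, 2 were higher and 10 lower in control and 2 higher and 14 lower in WM. Of 11 glucocorticoid responsive genes, 9 were higher in control and 8 in WM, and 0 lower, with *Mt2* going from 3.65 to 588 FPKM in control and from 4.20 to 105 FPKM in WM. Their summed FPKM at 6 hr was 1256 to 6510 in control, highest in the apart replicate 2, and 1395 to 2053 in WM.

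The genes whose levels were most like those of a member were found by Pearson's r of log2(FPKM + 1) over the 24 libraries of the LPS experiment, which share groups and therefore the LPS response. *Socs2* was most like *Thbs1* (r = 0.957), *Mt1* (0.952) and *Clic4* (0.947). *Socs1* was most like *Taf5l* (0.922), *Sar1a* (0.903) and *Por* (0.899), and *Cish* was most like *Cxcl11* (0.891), *Lrrc8b* (0.886) and *Fcrlb* (0.881). *Dusp1* was most like *H2-Oa* (0.823), *Zfp36* (0.819) and *Phospho2* (0.812). For *Dusp2* these were *Tnip1* (0.945), *Txnrd1* (0.940) and *St3gal1* (0.935), with r of 0.878 to 0.895 without the 2 apart libraries. The likeness of the other 3 members leaned on these libraries. It fell from 0.925 to 0.778 for *Socs3* and *Lrp10*, from 0.790 to 0.541 for *Dusp5* and *Pik3ap1*, and from 0.915 to 0.745 for *Dusp6* and *Tifab*. Among the members, the highest r were those of *Socs1* and *Cish* (0.869, and 0.8294 without the 2 apart libraries) and of *Socs2* and *Dusp2* (0.849, and 0.839 without them), so their order rests on these libraries.

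Outside the LPS experiment no member passed the test. In the GLOBAL experiment, 0 of 7 tested members were called, and 0.00% of all 16651 tested genes were, with 1 member and 1504 genes at an unadjusted p under 0.05, and 0 members and 24 genes by voom. *Socs2* stayed under the filter there, at 0.239 to 1.07 FPKM. *Dusp1* was at 1821, 2594, 1690 and 2912 FPKM in control and at 2495, 2344 and 2613 FPKM after GLOBAL repopulation, and *Socs3* was at 116, 78.1, 71.8 and 179 FPKM and at 121, 83.3 and 95.6 FPKM. The groups overlapped for all members. *Dusp6* was at 250, 247, 177 and 242 FPKM in control and at 209, 149 and 162 FPKM after repopulation, and was the member with an unadjusted p under 0.05 (adjusted p = 0.535). The immediate early sum was 8847 to 17969 in control and 14803 to 17710 after repopulation. The 3 tables were normalized separately, so no test was made across them.

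**Figure D4:**
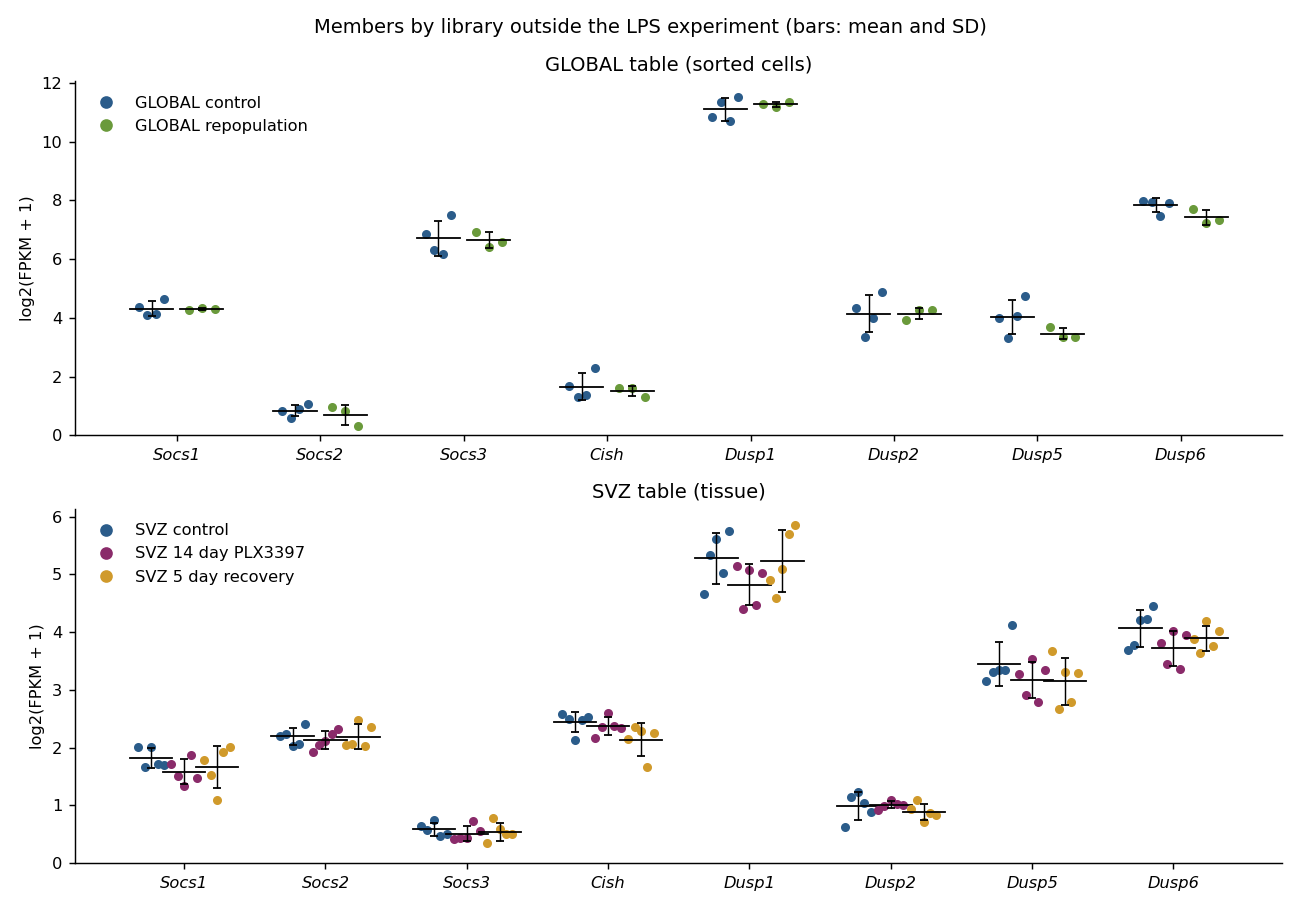
Log2(FPKM + 1) of each member in every library of the GLOBAL experiment (sorted cells, top) and the SVZ experiment (tissue, bottom). Points are libraries and bars are the mean and SD of a group. The groups overlap for every member in both tables.

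In SVZ tissue, 0 of 7 tested members were called after 14 days of PLX3397 (1.26% of all genes called), at 5 days of recovery (1.27%) and between these (0.325%). Members with an unadjusted p under 0.05 numbered 1, 1 and 0, and voom called 0 in each. Microglia markers changed strongly in the same libraries, with a summed FPKM over 12 genes of 267 to 367 in control, 16.5 to 20.6 after PLX3397 and 31.7 to 39.9 at recovery. Ependymal and choroid plexus markers ranged widely in control, with sums of 62.3 to 21410 (median 96.6). Their sums were 77.0 to 107 after PLX3397 and 70.8 to 122 at recovery. The highest member was again *Dusp1*, at 39.2 ± 11.5 FPKM in control, 28.0 ± 6.75 after PLX3397 and 38.7 ± 14.7 at recovery (SD, n = 5 each). *Dusp6* was at 16.1 ± 3.74, 12.4 ± 2.70 and 14.04 ± 2.29 FPKM, *Dusp5* at 10.3 ± 3.49, 8.16 ± 1.93 and 8.15 ± 2.59 FPKM, and *Cish* at 4.47 ± 0.623, 4.18 ± 0.569 and 3.46 ± 0.771 FPKM. *Socs2* was at 3.59 ± 0.490 FPKM in control and *Socs1* at 2.53 ± 0.435, while *Dusp2* ranged from 0.534 to 1.34 FPKM. *Socs3* stayed under the filter, at 0.272 to 0.711 FPKM in all 15 libraries, and was the lowest member in tissue. Adjusted p values over the 3 comparisons were 0.263 to 0.999.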

How the data were processed

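The authors deposited FPKM values in 3 tables, made from reads aligned with STAR to mm10 and counted with featureCounts, with edgeR and limma also named in the submitters' processing notes. Each table was normalized separately. Library sizes were recovered from the steps of low FPKM values, which gave whole reads (tolerance 0.01) for 15281 of 15285, 19929 of 19930 and 15692 of 15695 genes in the LPS, GLOBAL and SVZ tables. Genes with at least 1 FPKM in at least 3 libraries were tested (12684, 16651 and 14151) as log2(FPKM + 1) with limma 3.58.1 in R 4.3.3, with all groups of a table in 1 fit and Benjamini-Hochberg adjustment over all tested genes. Replicates were separate samples by their labels, and p-values measure the spread between them. Members and gene lists were chosen with earlier results of these data known. Named genes of a list are the 2 called genes with the largest differences. Alternatives were other pseudocounts, filters and normalizations, limma voom on recovered reads, a replicate block, the compared groups alone, and each library left out. The fit on recovered reads and the one without both apart control libraries were chosen after seeing the data. The fit was tested on simulated data.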

Additional observations from a re-analysis of the deposited data

Results flagged for a closer look

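Single libraries that lay far from the others of their group (Dixon's test) were looked for in 72 groups of values and found in 7. Chance flags about 1 in 20 groups where values are normal and groups independent. These groups share libraries and FPKM need not be normal, so the count cannot be read against that rate. *Socs3* was at 439 FPKM, *Dusp2* at 545 FPKM and *Dusp5* at 62.8 FPKM in control 6 hr replicate 2. *Socs3* was at 107 FPKM in WM 6 hr replicate 2. *Dusp6* was at 177 FPKM in GLOBAL control replicate 3, the lowest of its group. In SVZ control tissue, *Cish* was at 3.40 FPKM in replicate 3, the lowest of its group, and *Dusp5* was at 16.5 FPKM in replicate 5.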

How the results depend on the processing

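Of 22 called member differences, 15 kept their call under all alternatives and 7 lost it in 28 of 391 fits, and 0 of the called values changed sign. With only the compared groups in the fit, 1 member was called for WM 24 hr against 0 hr (*Dusp6*). Over all 124 member values, 108 of 2392 alternative values had the opposite sign, all of values that were not called and that were at most 0.46 in size, and *Dusp5* at control 24 hr against 6 hr ranged from -0.71 to 0.69. These included *Socs3* at WM 6 hr against 0 hr, which ranged from -0.0315 (without WM 6 hr replicate 2) to 0.234 with 1 library left out, and *Dusp1* at WM 24 hr against 0 hr, which ranged from -0.302 to 0.0708 (0.0145 without WM 0 hr replicate 4 and 0.0708 without WM 24 hr replicate 1). With 1 library left out, the members called were 4 to 8 for control 6 hr against 0 hr, 2 to 3 for 24 hr against 0 hr and 4 to 5 for 24 hr against 6 hr, and in WM 3 to 4 for 6 hr against 0 hr and 3 to 4 for 24 hr against 6 hr. The cause was not tested. Under quantile normalization, *Dusp1* lost its call at control 6 hr (adjusted p = 0.071) and at WM 24 hr against 6 hr (0.0988). Differences of low genes such as *Socs2* and *Cish* are limited by their few reads. Over the alternatives, the rise of *Socs2* at 6 hr ranged from 2.87 to 5.14 in control and from 2.07 to 3.19 in WM. That of *Cish* ranged from 1.25 to 2.91 in control and from 1.20 to 2.30 in WM.

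With the replicate block, 6 members were called for control 6 hr against 0 hr and 4 for WM, as without it. *Dusp1* lost its call in control at 6 hr (-0.59, adjusted p = 0.0688) and *Dusp5* gained one (1.51, adjusted p = 0.0219). Same-numbered libraries of the LPS experiment correlated at -0.19 to 0.27 (55 pairs), so the numbers were not taken as pairs.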
